A study of Mus musculus with 30 samples.

Results

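Dendritic cells take up tumor antigen and carry it to T cells. Conventional dendritic cells need the cytokine receptor Flt3, their cross-presenting branch (cDC1) depends on the transcription factor Batf3 and bears the chemokine receptor Xcr1, and on maturation they switch on Ccr7, which guides them to lymph nodes, Fscn1, an actin-bundling protein of their dendrites, and the T cell costimulatory ligands Cd80 and Cd86. CD40 is a receptor on these cells through which helper T cells drive that maturation, and an agonist antibody can act in their place. The 9 genes described here are 5 identity genes (Flt3, Batf3, Xcr1, Zbtb46 and Naaa) and 4 maturation genes (Ccr7, Fscn1, Cd80 and Cd86), chosen by symbol, and all 9 were found among the 18975 genes measured.

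RNA was sequenced from 30 tumors of B16F10, a transplantable melanoma line of C57BL/6 mice, grown under the skin of C57BL/6 females. Hosts were wild type (WT, labelled ARE-del +/+) or heterozygous for ARE-del (HET, labelled ARE-del +/-), an allele that lacks an AU-rich element of Ifng, the interferon-gamma gene, so the allele sits in the host cells and not in the injected tumor cells. From day 7 the mice were dosed 2 times a week with rat IgG2A as control, with 0.25 mg of anti-PD1, a checkpoint-blocking antibody, with 0.25 mg of the agonist anti-CD40, or with the last 2 together (the combination). WT hosts gave 5 IgG, 4 anti-PD1, 3 anti-CD40 and 3 combination tumors, and HET hosts gave 4, 3, 4 and 4 in that order. The main question was how the 9 genes stood with anti-CD40 (alone or in the combination) against without it (IgG or anti-PD1), in each genotype. The labels do not say that each replicate is a separate animal, so the p-values below measure only how far these samples scatter, which may be technical.

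Levels are given as log2 CPM, that is reads relative to the size of each library plus a small prior, and on this scale a gene without any read stands at -3.64. Libraries held between 17612565 and 35996574 reads. HET IgG replicate 2 stood apart, with 6.53% mitochondrial reads and 1554 genes without a read, and the main HET differences are also given without it, an alternative chosen after the values were seen. The labels also carry a number from 5 to 8 (written L5 to L8) that they do not explain and that nearly coincides with the groups. L5 and L6 hold all WT libraries and 1 of HET IgG, and only L7 holds several HET libraries both with anti-CD40 (3) and without it (5). In these bulk samples, fewer cells of a type and less RNA per cell cannot be told apart.

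The identity and maturation genes differed widely in level. Per kilobase of exon, Fscn1 averaged 81.9 CPM over the 30 libraries, Naaa 2.37, Batf3 1.24, Zbtb46 0.971, Ccr7 0.296, Cd86 0.280, Cd80 0.149, Flt3 0.040 and Xcr1 0.024. Xcr1 was counted from only 92 reads in all 30 libraries and Flt3 from 199, so the filter for the main fit (3 or more libraries with a log2 value over 0) left both out and kept the other 7. Ccr7 passed it with 5 libraries, 4 of them HET tumors given anti-CD40, so its passing was not independent of the group in which it was high. The markers thus included scarce defining genes (Xcr1 and Clec9a, another cDC1 receptor, both below a log2 of 0 in every library) beside genes present in all libraries (Fscn1, Zbtb46 and Naaa).

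**Figure D1:**
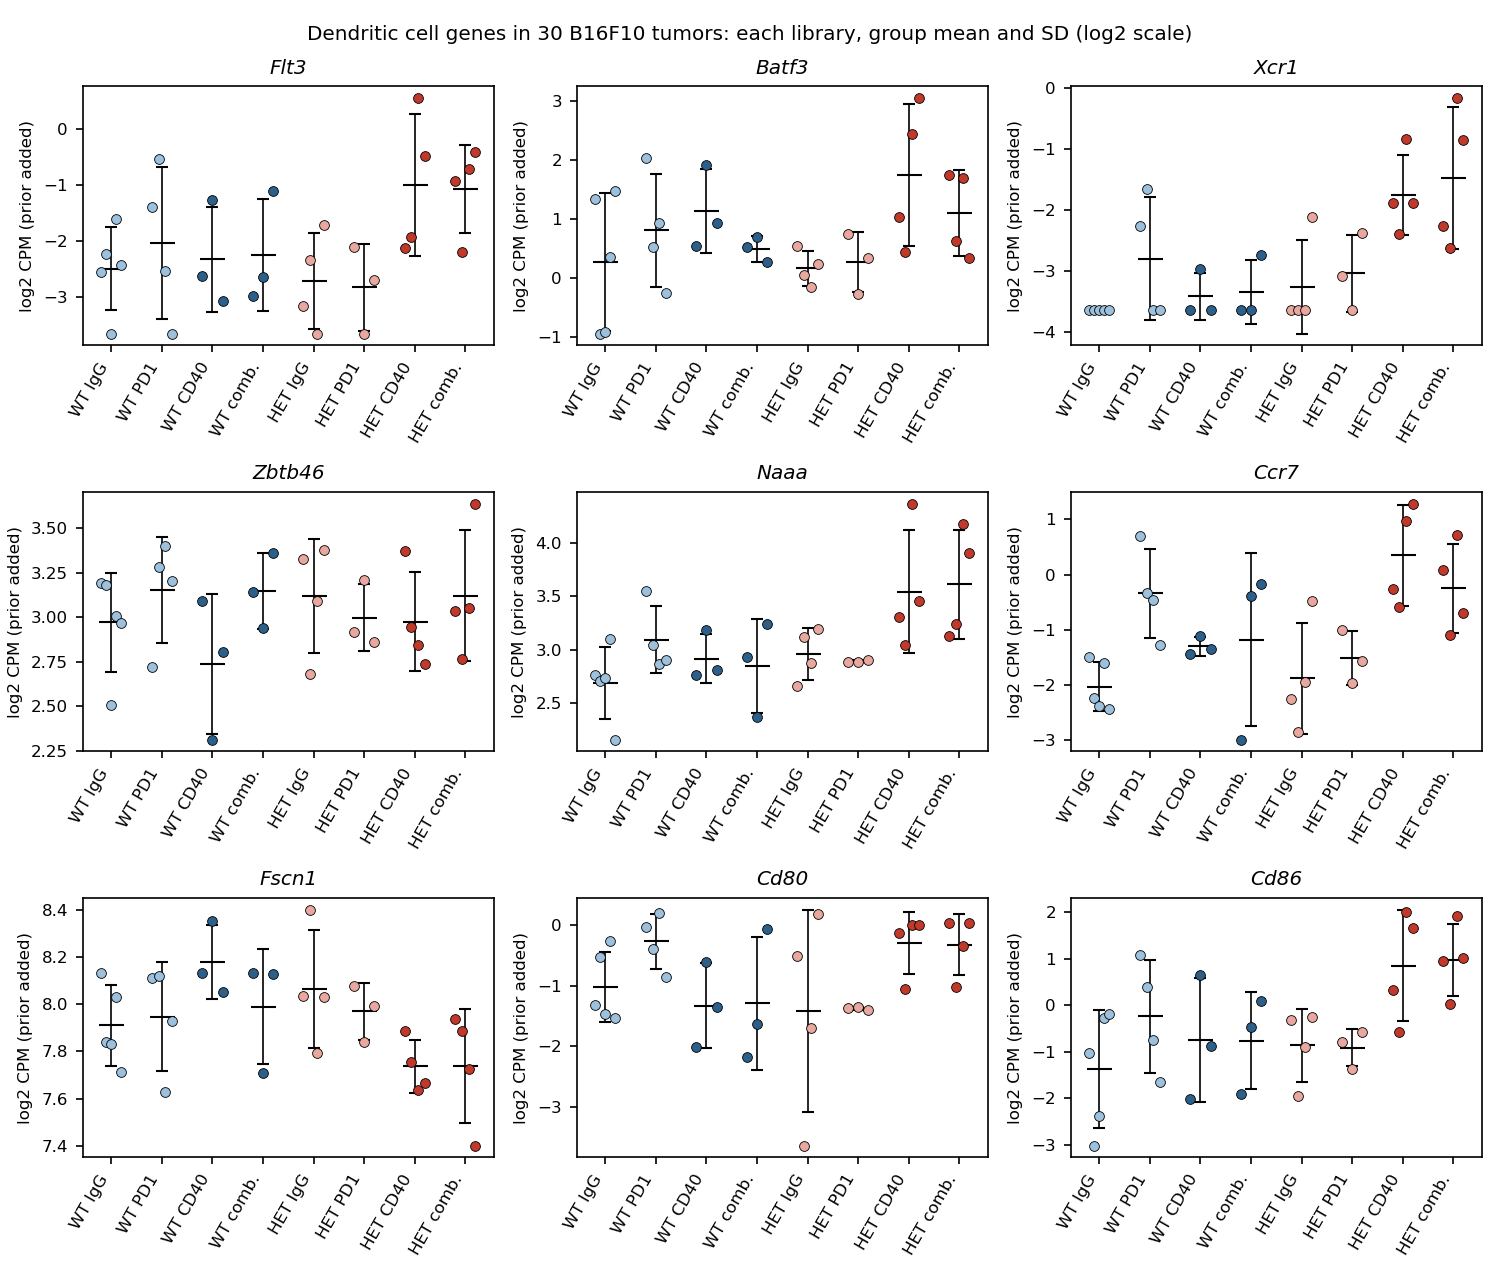
Each point is 1 library's log2 CPM, with the group mean and SD, for the 9 genes in the 8 groups (PD1, CD40 and comb. name the antibodies given; dark points had anti-CD40). Ccr7, Cd86, Flt3 and Xcr1 have their 2 highest group means in the HET tumors given anti-CD40, whereas Zbtb46 lies between 2.31 and 3.64 in all 30 libraries.

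In HET tumors, anti-CD40 went with higher Ccr7, Cd86, Flt3 and Xcr1. Fitted over all 18975 genes with no level filter, 4.3% were called in this comparison, among them Ccr7 (limma, adjusted p = 0.025), Cd86 (0.047), Flt3 (0.042) and Xcr1 (0.025). In the fit with the filter Ccr7 and Cd86 were called, but Ccr7 passed that filter through the HET libraries in which it was high, so its call there is no separate result. The background in that fit was 4.26% of the 15002 genes tested (639, called by limma where the p adjusted by the Benjamini-Hochberg method was below 0.05), and 2.97% (445) when only higher genes are counted. At an unadjusted p under 0.05 the background was 26.6%. The number called rested on single libraries, from 0 without HET anti-PD1 replicate 2 to 1876 without HET anti-CD40 replicate 2, and was 12 without HET anti-CD40 replicate 3 and 10 without HET combination replicate 3. It was 150 without HET IgG replicate 2, and neither Ccr7 (limma, adjusted p = 0.061) nor Cd86 (0.081) was among them. Depth, genes without a read and mitochondrial reads also moved with the groups, with ranges that overlapped. The 7 HET libraries without anti-CD40 held 21849047 to 29995970 reads, and the 8 with it 25886054 to 35996574. In the same order, 531 to 1554 genes had no read against 195 to 576. Mitochondrial reads were 1.64% to 6.53% against 0.722% to 2.37%. The part of depth and of these other measures in the result was not tested.

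Ccr7 (ENSMUSG00000037944.8, chr11:99144196-99155077, minus strand) encodes the receptor for the lymph node chemokines Ccl19 and Ccl21. Its log2 values in HET were -2.24, -2.84, -1.93 and -0.47 after IgG, and -1.001, -1.96 and -1.56 after anti-PD1. With anti-CD40 alone they were -0.26, -0.59, 0.97 and 1.28, and with the combination 0.09, -1.10, 0.71 and -0.69. Of the 8 libraries with anti-CD40, 5 lay above all 7 without, and the overlap came from HET IgG replicate 4 at -0.47. The fitted difference was 1.74 ± 0.44 (SE), a 3.35-fold change on this scale (exact permutation p = 0.0037, two-sided, n = 8 and 7). Without the filter the limma adjusted p was 0.025. With the filter it was 0.028, which is no separate result, as Ccr7 passed the filter through HET libraries in which it was high. In reads, the gene had 266 in the 8 libraries with anti-CD40 and 48 in the 7 without. Scaled to library size, its mean was 1.13 CPM with and 0.267 without.

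Cd86 (ENSMUSG00000022901.9, chr16:36603869-36666081, minus strand), a ligand of Cd28 and Ctla4 on T cells, gave -0.32, -1.95, -0.91 and -0.26 in HET IgG and -0.80, -1.36 and -0.57 in HET anti-PD1. Its values were 0.33, -0.59, 2.01 and 1.65 with anti-CD40 and 0.94, 0.03, 1.91 and 1.00 with the combination. All but 1 of the libraries with anti-CD40, replicate 2 of the single antibody, exceeded every library without it. The difference was 1.79 ± 0.53 (limma, adjusted p = 0.049; exact permutation p = 0.0024, n = 8 and 7), or 3.47-fold. Read totals were 503 with and 91 without, and the mean CPM was 2.14 with and 0.501 without.

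In the fit with the filter both calls were near the threshold and depended on single libraries. The Ccr7 counts below carry the limit given above, as Ccr7 passed that filter through HET libraries in which it was high. The Ccr7 difference lay between 1.58 and 1.98 with each HET library left out, and its adjusted p was at or above 0.05 in 9 of 15 cases, without IgG replicate 1, 2 or 3, anti-PD1 replicate 2 or 3, anti-CD40 replicate 3 or 4, or combination replicate 1 or 3 (at most 0.112). For Cd86 the difference stayed between 1.60 and 2.03, and the call was lost in 11 of 15, without the same 9 libraries and also without anti-PD1 replicate 1 or combination replicate 4 (at most 0.154).

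Within L7 alone, where 3 libraries had anti-CD40 and 5 did not, the direction and size were alike. These libraries are part of the main comparison, so this is no independent result. The 3 had anti-CD40 alone and the 5 were 2 IgG and 3 anti-PD1 libraries, so anti-PD1 was not balanced. HET IgG replicate 2, the library that stood apart, is among the 5, and no value was computed without it. The Ccr7 difference was 1.90 (exact permutation p = 0.018, the smallest that 3 against 5 allows) and the Cd86 difference 1.70 (exact permutation p = 0.036). There Xcr1 differed by 1.57, Batf3 by 1.16 and Naaa by 0.63 (each with exact permutation p = 0.036), Cd80 by 1.5 (0.018), Flt3 by 1.73 (0.054), Fscn1 by -0.26 (0.16) and Zbtb46 by 0.10 (0.57). With the L number as a covariate of the full fit, Ccr7 was at 0.97 and Cd86 at 1.37, both with a limma adjusted p of 0.998, and 0 genes of 15002 were called. Over all alternatives other than a left-out library the adjusted p ran from 0.025 to 0.998 for Ccr7 and from 0.027 to 0.998 for Cd86.

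Flt3 (ENSMUSG00000042817.13, chr5:147330741-147400489, minus strand), the receptor for the dendritic cell growth factor Flt3l, had 15 reads in the 7 HET libraries without anti-CD40 and 121 in the 8 with it. Scaled to library size, its mean was 0.086 CPM without and 0.520 with it. Log2 values were -3.15, -2.33, -3.64 and -1.71 after IgG and -2.10, -3.64 and -2.70 after anti-PD1. They were -2.11, -1.93, 0.56 and -0.48 with anti-CD40, and -0.93, -2.20, -0.71 and -0.40 with the combination. The groups overlapped, with 5 of 8 libraries above all those without. The difference was 1.74 ± 0.49 (exact permutation p = 0.0057, n = 8 and 7; limma without the filter, adjusted p = 0.042), and the adjusted p was 0.05 or higher in 10 of 15 fits that left out 1 HET library (differences of 1.48 to 1.93, adjusted p at most 0.153). Those 10 lacked IgG replicate 1, 2 or 3, anti-PD1 replicate 2 or 3, anti-CD40 replicate 3 or 4, or combination replicate 1, 3 or 4.

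Xcr1 (ENSMUSG00000060509.4, chr9:123852315-123862029, minus strand), the cDC1 receptor for the chemokine Xcl1, had at least 3 reads in each of the 8 HET libraries with anti-CD40, 71 in all. It had 8 reads in 3 of the 7 HET libraries without. The mean CPM was 0.308 with and 0.043 without. The log2 values with anti-CD40 were -1.89, -2.40, -0.84 and -1.88, and with the combination -2.27, -2.62, -0.16 and -0.86. After IgG only replicate 4 held reads (-2.12), and anti-PD1 gave -3.08, -3.64 and -2.39. The difference was 1.53 ± 0.38 (exact permutation p = 0.0069, n = 8 and 7; limma without the filter, adjusted p = 0.025). Leaving out 1 HET library gave 1.32 to 1.73, and the adjusted p was 0.05 or higher in 6 of 15 cases (at most 0.104): without IgG replicate 2 or 3, anti-PD1 replicate 2, anti-CD40 replicate 3 or 4, or combination replicate 3.

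Batf3, Naaa and Cd80 stood higher in HET tumors with anti-CD40 without passing adjustment. Batf3 (ENSMUSG00000026630.5, chr1:191097847-191108945, plus strand) lay between -0.26 and 0.75 in the 7 libraries without the antibody (median 0.23), against 0.34 to 3.05 in the 8 with it (median 1.36), a difference of 1.20 ± 0.42 (limma, adjusted p = 0.086; exact permutation p = 0.011, n = 8 and 7). The 2 highest values, 3.05 and 2.43, were replicates 4 and 3 of anti-CD40 alone. Naaa (ENSMUSG00000029413.10, chr5:92257659-92278170, minus strand), a lysosomal amidase that is high in cDC1, ranged from 2.66 to 3.19 without and from 3.04 to 4.36 with anti-CD40, and 6 of 8 libraries exceeded all without. Its difference was 0.65 ± 0.20 (limma, adjusted p = 0.056; exact permutation p = 0.0061, n = 8 and 7).

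Cd80 (ENSMUSG00000075122.4, chr16:38455561-38496335, plus strand), the other B7 ligand, spanned -3.64 to 0.18 without and -1.05 to 0.05 with the antibody, so no library with it exceeded all those without. The difference was 1.09 ± 0.43 (limma, adjusted p = 0.114; exact permutation p = 0.019, n = 8 and 7). It was 0.72 without HET IgG replicate 2, the library with no Cd80 read, and 1.36 without HET IgG replicate 4, where it passed (limma, adjusted p = 0.040). Batf3 also passed without HET anti-CD40 replicate 2 (1.41, limma, adjusted p = 0.033), and Naaa without IgG replicate 4, anti-CD40 replicate 1 or 2, or combination replicate 2 (adjusted p from 0.026 to 0.045). Without HET anti-CD40 replicate 2, 1876 of 15002 genes were called, against 639 in the main fit. Batf3 and Cd80 were each called in 1 of 15 left-out fits and Naaa in 4 of 15. Each was called in 0 of 9 other alternatives.

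Zbtb46 and Fscn1 did not follow the others. Zbtb46 (ENSMUSG00000027583.9, chr2:181387762-181459426, minus strand), a transcription factor of conventional dendritic cells that endothelium also makes, was between 2.68 and 3.38 without anti-CD40 and between 2.74 and 3.64 with it. The difference was -0.01 (95% interval -0.35 to 0.33; limma, adjusted p = 0.973), so the interval excludes changes of the size measured for Ccr7 and Cd86. Fscn1 (ENSMUSG00000029581.10, chr5:142960343-142973185, plus strand) was far the most abundant, at 169 to 337 CPM, and many tumor cells make it too. HET IgG gave 8.04, 8.40, 7.79 and 8.03, and HET anti-PD1 8.08, 7.84 and 7.99. With anti-CD40 the values were 7.89, 7.76, 7.64 and 7.67, and with the combination 7.94, 7.88, 7.73 and 7.40. It was thus lower with anti-CD40, opposite to Ccr7 and Cd86, with a difference of -0.28 ± 0.11 (limma, adjusted p = 0.109; exact permutation p = 0.011, n = 8 and 7) that did not pass adjustment.

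**Figure D2:**
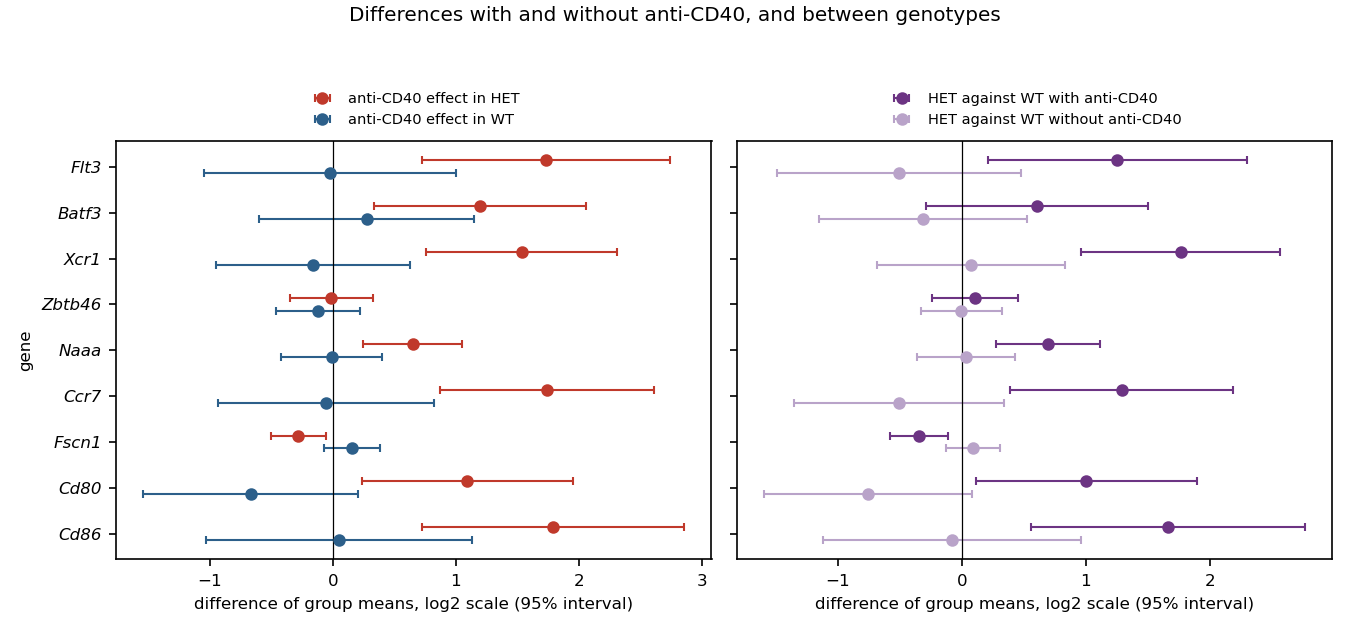
Points are fitted log2 differences with 95% intervals, on the left with minus without anti-CD40 in HET and in WT hosts, on the right HET minus WT with and without anti-CD40. In HET hosts the 7 genes other than Zbtb46 and Fscn1 lie above 0, from 0.65 (Naaa) to 1.79 (Cd86), and in WT hosts all 9 intervals include 0.

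For 7 of the 9 genes the RefSeq table for GRCm38.p6 gives a window before 1 RefSeq start (Ccr7 and Cd86 are not in it). The windows of Batf3, Zbtb46 and Cd80 lie inside the GENCODE vM21 gene, so for these 3 the region before the gene's first start was not searched. The 250 bases before each RefSeq start were searched on both strands for 4 motifs of pathways that act in dendritic cell maturation: the interferon-gamma activated site TTCNNNGAA, the interferon-stimulated element GAAANNGAAA, the cyclic AMP element TGACGTCA and the NF-kB site. These were found in 7.02%, 2.98%, 1.55% and 7.25% of 32851 windows of that length. Among the 7 genes, Batf3 held the interferon-gamma activated site and Fscn1 the cyclic AMP element, and the windows of Flt3, Xcr1 and Naaa, outside their genes, held none of the 4. Shown are the Batf3 match (chr1:191098165-191098193, inside a first exon of 2 non-coding GENCODE vM21 transcripts of Batf3 that start farther upstream), the Fscn1 promoter up to its first annotated exon (chr5:142960105-142960342), since Fscn1 differed in direction, and the Xcr1 promoter (chr9:123862030-123862279, minus strand), a cDC1 gene with no match, with motif matches in capitals.
Batf3: gccacgtgacTTCCACGAAgagcgggggc
Fscn1: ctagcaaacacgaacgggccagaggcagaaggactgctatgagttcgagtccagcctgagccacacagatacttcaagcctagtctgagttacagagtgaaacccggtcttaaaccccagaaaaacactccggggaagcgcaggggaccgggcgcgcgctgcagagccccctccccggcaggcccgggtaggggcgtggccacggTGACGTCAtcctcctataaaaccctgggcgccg
Xcr1: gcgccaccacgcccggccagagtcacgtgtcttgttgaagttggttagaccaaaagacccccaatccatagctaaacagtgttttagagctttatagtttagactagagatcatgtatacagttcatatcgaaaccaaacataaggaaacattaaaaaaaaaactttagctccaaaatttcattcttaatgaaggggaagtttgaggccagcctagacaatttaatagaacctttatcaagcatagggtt
A match describes these letters only. No binding or accessibility was measured here.

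In WT tumors no such difference with anti-CD40 was found. Ccr7 was -1.49, -2.23, -2.37, -1.60 and -2.43 after IgG and 0.71, -0.34, -0.45 and -1.28 after anti-PD1. With anti-CD40 it was -1.43, -1.11 and -1.35, and with the combination -2.98, -0.38 and -0.17. All 4 anti-PD1 libraries lay above all 5 IgG libraries, and the 6 libraries with anti-CD40 were spread across both. The pooled anti-CD40 difference was -0.06 (95% interval -0.94 to 0.83).

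Cd86 in WT hosts was -1.02, -3.01, -2.37, -0.27 and -0.19 after IgG, 1.07, 0.38, -0.75 and -1.66 after anti-PD1, -2.02, 0.65 and -0.87 after anti-CD40, and -1.91, -0.46 and 0.09 after the combination. Its libraries spread over about the same range with and without the antibody, and the difference was 0.05 (95% interval -1.03 to 1.13). Flt3 differed by -0.02, Batf3 by 0.28, Xcr1 by -0.16, Zbtb46 by -0.12, Naaa by -0.01, Fscn1 by 0.16 and Cd80 by -0.67, and the smallest exact permutation p was 0.106, for Cd80 (n = 6 and 9). Xcr1 had no read in any of the 5 WT IgG libraries, 10 reads in 2 of 4 WT anti-PD1 libraries and 3 reads in 2 of 6 WT libraries with anti-CD40. In this comparison limma and voom each called 0 of 15002 genes (0%), with 380 genes (2.53%) at an unadjusted limma p under 0.05, none of them one of the 7 tested. All WT libraries with anti-CD40 are of L6 and 8 of the 9 without are of L5, so the antibody and the L number cannot be told apart in WT hosts.

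The difference between genotypes in the anti-CD40 effect did not pass the test for any of the 9 genes, so the contrast between a call in HET and none in WT is not itself established. It was 1.80 ± 0.62 for Ccr7 (limma, adjusted p = 0.357), 1.76 ± 0.61 for Cd80 (0.365), 1.74 ± 0.75 for Cd86 (0.532), 0.66 ± 0.28 for Naaa (0.532), 0.92 ± 0.60 for Batf3 (0.795), 0.11 ± 0.23 for Zbtb46 (0.953) and -0.44 ± 0.15 for Fscn1 (0.371). Without the filter it was 1.76 ± 0.70 for Flt3 (limma, adjusted p = 0.440) and 1.69 ± 0.54 for Xcr1 (0.277). Limma and voom called 0 of 15002 genes here too (0%), with 1145 (7.63%) at an unadjusted limma p under 0.05. The sign turned once the L number entered the model, to -0.07 for Ccr7, -0.33 for Cd86, -0.74 for Batf3 and -0.65 for Flt3, and with the Ptprc level the Cd86 value was -0.15.

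Set against WT tumors that also had anti-CD40, HET tumors with it stood higher in Xcr1. All 8 HET libraries lay at or above -2.62, and the 6 WT libraries were at -3.64, -2.97, -3.64, -3.64, -3.64 and -2.73. The Xcr1 difference was 1.77 ± 0.39 (exact permutation p = 0.0016, n = 8 and 6; limma without the filter, adjusted p = 0.031). It was 1.55 to 1.96 with 1 library left out, and the adjusted p was then 0.05 or higher in 7 of 14 cases (at most 0.118): without WT anti-CD40 replicate 1 or 3, WT combination replicate 1 or 2, HET anti-CD40 replicate 3, or HET combination replicate 3 or 4. Without the filter 0.78% of genes were called in this comparison.

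The 7 genes of the main fit were not called between genotypes under anti-CD40, against a background of 115 of 15002 genes (0.767%), 111 of them higher in HET (0.74%). Cd86 differed by 1.66 ± 0.55 (limma, adjusted p = 0.176), Ccr7 by 1.29 ± 0.45 (0.241), Cd80 by 1.00 ± 0.45 (0.567), Naaa by 0.69 ± 0.20 (0.101), Batf3 by 0.61 ± 0.44 (0.984), Zbtb46 by 0.11 ± 0.17 (0.984) and Fscn1 by -0.35 ± 0.11 (0.170). An unadjusted p under 0.05 was found for 1051 genes (7.01%). Flt3 differed by 1.25 ± 0.51 (exact permutation p = 0.041, n = 8 and 6). Without anti-CD40 the genotypes differed by -0.76 (Cd80) to 0.09 (Fscn1) over the 9 genes, none called, and limma and voom called 0 of 15002 genes (0%), with 543 (3.62%) at an unadjusted p under 0.05 and none of the 7 among them. HET and WT libraries share no L number with anti-CD40, so genotype and L number cannot be told apart there.

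Ordered by mean level, HET anti-CD40 and the HET combination took the 2 highest places for Flt3, Xcr1, Naaa, Ccr7 and Cd86, and the 2 lowest for Fscn1. WT anti-PD1 came in place 3 for Flt3, Xcr1, Naaa, Ccr7 and Cd86 and in place 1 for Cd80 and Zbtb46. Few neighbours in these orders differed by more than the larger of their SDs. Only 2 gaps did, that below HET anti-CD40 in Xcr1 (-1.75 against -2.80 in WT anti-PD1) and that below the HET combination in Cd80 (-0.32 against -1.02 in WT IgG).

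Each treatment was also set against IgG of its own genotype, and limma and voom called 0 of 15002 genes (0%) in all 6 of these comparisons. The unadjusted limma p was under 0.05 for 2230 genes with anti-CD40 in HET, 1472 with the combination in HET, 144 with anti-PD1 in HET, 777 with anti-CD40 in WT, 62 with the combination in WT and 413 with anti-PD1 in WT. The 3 comparisons within a genotype share their IgG libraries. Ccr7 was above HET IgG by 2.23 ± 0.59 with anti-CD40 and 1.63 ± 0.59 with the combination, but by 0.37 ± 0.64 with anti-PD1. In WT it was above IgG by 0.73 ± 0.61, 0.85 ± 0.61 and 1.69 ± 0.56 in the same order. Cd86 stood at 1.71 ± 0.72, 1.83 ± 0.72 and -0.05 ± 0.77 in HET and at 0.63 ± 0.74, 0.61 ± 0.74 and 1.13 ± 0.68 in WT. Adding anti-PD1 to anti-CD40 in HET thus left both genes within their group SDs of anti-CD40 alone.

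Ptprc, which encodes the pan-leukocyte protein CD45, rose in HET tumors with anti-CD40 by about as much as Ccr7 and Cd86. It was at -0.44 to 2.79 in the 7 HET libraries without anti-CD40 and at 2.83 to 4.49 in the 8 with it, with no overlap, a difference of 1.85 ± 0.45 (limma, adjusted p = 0.027; exact permutation p = 0.00041, the smallest that 2450 arrangements allow here). Without HET IgG replicate 2, the library at -0.44, the Ptprc difference was 1.49 (limma, adjusted p = 0.057; exact permutation p = 0.0016, n = 8 and 6). Taken relative to Ptprc in the same library, the anti-CD40 difference in HET was -0.11 for Ccr7 (exact permutation p = 0.75), -0.06 for Cd86 (0.85), -0.12 for Flt3 (0.84) and -0.32 for Xcr1 (0.46). On the same relative scale a gene whose own level does not move falls by the Ptprc difference, so such falls restate the rise of Ptprc. Naaa fell by 1.21 (exact permutation p = 0.0012), Zbtb46 by 1.86 (0.00041) and Fscn1 by 2.13 (0.00082), while Batf3 was at -0.66 (0.20) and Cd80 at -0.76 (0.050). These falls are no separate results, since Naaa itself stood higher and Zbtb46 hardly differed, as given above. Without HET IgG replicate 2 the relative values were 0.09 for Ccr7, 0.12 for Cd86, 0.31 for Flt3 and -0.02 for Xcr1 (smallest exact permutation p = 0.38), and those of Naaa (-0.82), Zbtb46 (-1.58) and Fscn1 (-1.72) were still below 0 (largest exact permutation p = 0.0024). With the Ptprc level as a covariate, Ccr7 differed by 0.65 (limma, adjusted p = 0.691), Cd86 by 0.24 (0.850) and Cd80 by -0.04 (0.979), and 0 genes were called.

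**Figure D3:**
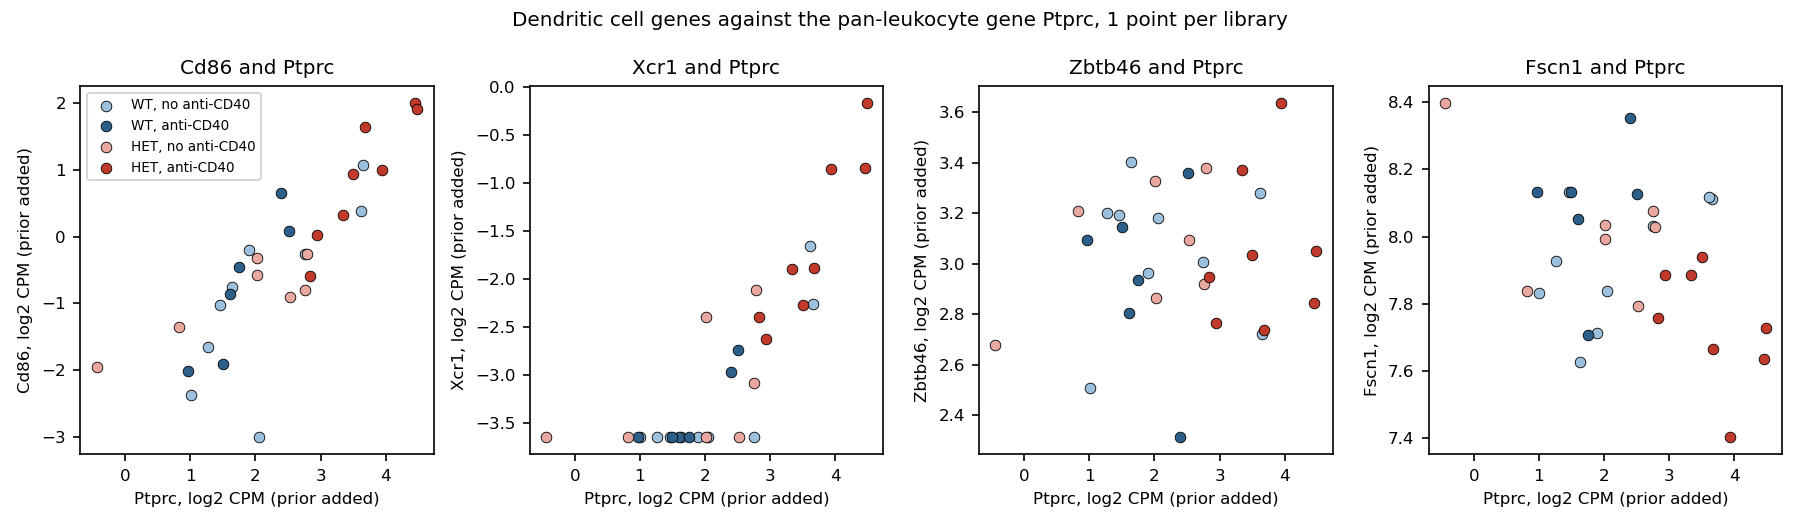
Each point is 1 of 30 libraries, with log2 CPM of Ptprc on the x axis and of Cd86, Xcr1, Zbtb46 or Fscn1 on the y axis, colored by genotype and anti-CD40. Cd86 and Xcr1 rise along Ptprc (Pearson r = 0.85 for both), Zbtb46 shows no trend (r = 0.12), and Xcr1 points at the bottom are libraries without a read.

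Across the 30 libraries, Cd86 correlated with Ptprc at Pearson r = 0.85 (Spearman rho = 0.85), Xcr1 at 0.85 (0.88), Flt3 at 0.78 (0.82) and Ccr7 at 0.78 (0.74), each with a permutation p of 1e-05 for r and for rho, the smallest that 100000 permutations give, and at most 4.1e-05 after adjustment over 45 pairs. The permutations moved libraries across the 8 groups, so these p-values also reflect differences between groups. With the group means removed, r was 0.74, 0.70, 0.65 and 0.65 in the same order. Without the 2 libraries farthest from the median, r was 0.83, 0.87, 0.86 and 0.72. Within L numbers (8, 8, 8 and 6 libraries of L5, L6, L7 and L8) it was 0.73, 0.93, 0.89 and 0.92 for Cd86, 0.84, 0.81, 0.80 and 0.89 for Xcr1, 0.94, 0.75, 0.61 and 0.80 for Flt3, and 0.70, 0.37, 0.92 and 0.56 for Ccr7. Zbtb46 showed no relation (r = 0.12, permutation p = 0.51, adjusted 0.58; rho = 0.008, permutation p = 0.97). Fscn1 had r = -0.41 (permutation p = 0.024, adjusted 0.038; rho = -0.34, permutation p = 0.063, adjusted 0.10), which was -0.24 without 2 libraries, 0.59 in L5 and 0.32 in L6, and -0.76 in L7 and -0.66 in L8, so the relation does not hold within all L numbers. With the group means removed, r of Fscn1 with Ptprc was -0.04, so no relation was seen within groups. Among the members, Xcr1 and Naaa were the most alike (r = 0.85, rho = 0.83, permutation p = 1e-05 for both, adjusted at most 4.1e-05, r = 0.76 without 2 libraries, and 0.59, 0.78, 0.82 and 0.97 in L5 to L8).

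For each member that passed the filter, the 3 genes with the most similar pattern over the 30 libraries (highest Pearson r among 15001 compared) are given as a description, and none of them was another of the 9 genes. For Cd86 they were Ly6a (r = 0.92), Aif1 (0.92) and Cd52 (0.92). For Ccr7 they were Lynx1 (0.89), Pltp (0.89) and Prph (0.88), and for Cd80 Cfp (0.87), Hmha1 (0.85) and Dok3 (0.85). For Naaa they were Fam26f (0.86), Phf11b (0.86) and Ifi27l2a (0.86), and for Batf3 Ier5 (0.89), Rtn2 (0.88) and S100a6 (0.86). Zbtb46 and Fscn1 had weaker likenesses, with Bend4 (0.82), Phlpp2 (0.77) and Zfp451 (0.75), and with Clvs1 (0.72), Mad1l1 (0.70) and Gtpbp1 (0.69). Flt3 and Xcr1 were not compared in this way, being below the filter.

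Other dendritic cell genes in HET tumors were compared with all genes tested, of which 49.3% were higher with anti-CD40 and whose median difference was -0.01. Of 5 further cDC1 genes tested, 2 were higher (median -0.05), and 1 rose, Irf8 (1.92 ± 0.44, limma, adjusted p = 0.023), the transcription factor that works with Batf3. The abundant Cadm1 (-0.12) and Tlr3 (-0.29) did not pass. With 3 more that were below the filter, 5 of 8 cDC1 genes were higher (median 0.69), and among those 3 Clec9a had a difference of 1.19 (exact permutation p = 0.060, n = 8 and 7). Of 4 cDC2 genes tested, 3 were higher (median 0.44), and the lectin gene Clec10a rose (3.02 ± 0.78; limma, adjusted p = 0.032) while Sirpa was at 0.01, Irf4 at -0.35 and Klf4 at 0.86. Cadm1, Tlr3, Sirpa, Irf4, Klf4 and the called Irf8 had mean log2 levels of 7.44, 4.79, 8.17, 3.58, 2.50 and 2.85, above the 2.39 of Ptprc. Which cells made them, or made Clec10a, was not measured, so the values of all these genes need not describe dendritic cells.

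Of 7 genes shared by dendritic cells, 5 were higher (median 1.25) and 2 rose, Itgax, which encodes CD11c (1.75 ± 0.47; limma, adjusted p = 0.035), and Dpp4 (2.30 ± 0.64, adjusted p = 0.042). Spi1 was at 1.55, Id2 at 0.20 and Nfil3 at -0.22, none passing. Id2 and Nfil3 also had mean log2 levels (6.39 and 3.77) above that of Ptprc. Their source cells, like those of Itgax and Dpp4, were not measured. Of 5 plasmacytoid dendritic cell genes tested, 4 were higher (median 0.76) and none passed, among them Bst2 (0.76), Tcf4 (-0.25) and Runx2 (0.38). The largest differences were those of Ly6d (4.07) and Cox6a2 (1.69), while Siglech, below the filter, was at 0.35. Whether plasmacytoid cells made these genes here was not tested.

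Of 17 further maturation genes tested, 14 were higher (median 0.27) and 3 rose by limma. They were Cd40 itself (1.87 ± 0.39; limma, adjusted p = 0.019), Cd83, a surface marker of mature dendritic cells (1.57 ± 0.39, adjusted p = 0.028), and Il15ra, whose product presents interleukin 15 (1.37 ± 0.35, adjusted p = 0.031). The abundant Marcksl1 (0.04), Nfkb2 (0.07) and Cd274 (0.08) were near 0. Their mean log2 levels (6.77, 5.11 and 4.81) were above that of Ptprc too. Their source cells, like those of Cd40, Cd83 and Il15ra, were not measured. Among ligands and partners, both genes tested rose (median 1.90), Flt3l, the ligand of Flt3 (0.78 ± 0.22; limma, adjusted p = 0.045), and Ccl21a, a ligand of Ccr7 (3.03 ± 0.61, adjusted p = 0.019). How reads of the near-identical Ccl21 copies were divided is not given, so the Ccl21a value is uncertain. Ctla4, with few reads, was at 0.66. Without HET IgG replicate 2, Cd40 (limma, adjusted p = 0.047) and Ccl21a (0.044) were the genes of these lists still called, and Irf8 (0.052), Clec10a (0.061), Itgax (0.067), Dpp4 (0.070), Cd83 (0.061), Il15ra (0.061) and Flt3l (0.078) were not. Cd40, Ccl21a and Dpp4 had mean log2 levels of -0.51, -1.92 and -1.82 over the 30 libraries. Genes this scarce may have passed the filter through the libraries in which they were high, so their calls may not be independent of the group. In WT the same lists, with genes below the filter, had medians from -0.19 (cDC2 and shared genes) to 0.07 (ligands and partners), with 0 genes called. Between genotypes under anti-CD40, Irf8 (1.98 ± 0.46, limma, adjusted p = 0.035) and Itgax (2.37 ± 0.48, adjusted p = 0.021) were the called genes of these lists, both higher in HET. This was not particular to dendritic cell genes. In the same comparison limma called 1 macrophage, 1 B cell and 4 muscle genes, all higher in HET. The medians of the tested genes in those lists were 1.76, 1.72 and 3.46.

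**Figure D4:**
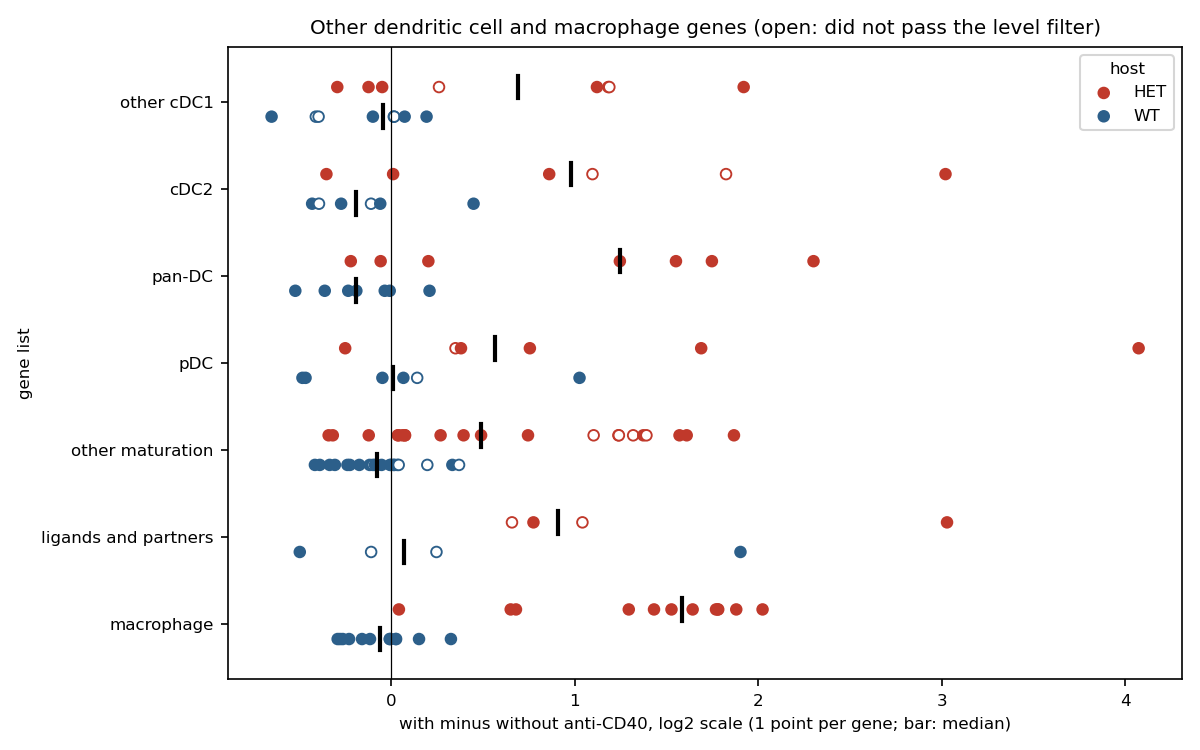
Each point is 1 gene's log2 difference with minus without anti-CD40 in HET (red) and WT (blue) hosts, by list, with a bar at the median over all measured genes and open points for genes below the level filter. In HET hosts the medians run from 0.49 (other maturation genes) to 1.59 (macrophage genes), and in WT hosts they lie near 0.

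Markers of other cells moved in the same comparison. All 12 macrophage genes were higher in HET tumors with anti-CD40 (median 1.59), and Fcgr1 (2.02 ± 0.55, adjusted p = 0.036), C1qb (1.77 ± 0.52, 0.049) and Lyz2 (1.88 ± 0.48, 0.029) rose by limma, with Cd68 at 0.65 and Adgre1 at 1.43. Their summed level was 172 to 283 CPM in HET IgG, 174 to 207 in HET anti-PD1, 363 to 1013 in HET anti-CD40 and 323 to 999 in the HET combination. In WT it was 55.5 to 325 after IgG, 94.8 to 660 after anti-PD1, 85.7 to 624 after anti-CD40 and 114 to 270 after the combination. In the fit without HET IgG replicate 2, 11 of 12 were higher (median 1.56) and none was called by limma (Fcgr1 0.068, C1qb 0.073 and Lyz2 0.063, adjusted p). Macrophages make Cd80, Cd86 and Itgax as well.

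All 9 T cell genes were higher too (median 1.98), with Cd3g (2.53 ± 0.57, limma, adjusted p = 0.022) and Cd8a (2.59 ± 0.53, adjusted p = 0.019) called and Thy1 at 1.29 and Lck at 0.48. Their summed level was 9.99 to 29.9 CPM in HET IgG, 9.88 to 19.0 in HET anti-PD1, 17.9 to 62.6 in HET anti-CD40 and 18.8 to 41.6 in the HET combination. T cells can make Ccr7. Of 4 B cell genes 3 were higher, with Cd22 called (1.54 ± 0.45; limma, adjusted p = 0.048), Cd79a at -0.47 and Cd79b at 1.07. Cd3g (limma, adjusted p = 0.048) and Cd8a (0.044) were still called without HET IgG replicate 2, and Cd22 (0.079) was not. The mean log2 levels of Cd3g, Cd8a and Cd22 over the 30 libraries were -1.97, -1.49 and -0.18. They may thus have passed the filter through the libraries in which they were high. The summed B cell level did not exceed 6.10 CPM in any library. The part of macrophages, T cells and B cells in the differences of the 9 genes was not tested.

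Skin and muscle genes were also higher with anti-CD40 in HET tumors, with sums that overlapped between the groups. All 18 keratinocyte genes were higher in HET tumors with anti-CD40 (median 3.20), among them Sbsn at 0.84, Dsp at 1.54 and Sfn at 2.10, and 1 rose by limma, Trp63, the regulator of epidermal identity (3.43 ± 0.98, adjusted p = 0.046). Their summed level ran from 12.4 to 1540 CPM in HET anti-CD40 and 19.9 to 569 in the HET combination, against 12.7 to 27.9 in HET IgG and 15.2 to 28.3 in HET anti-PD1. All 18 muscle genes were higher as well (median 2.53), with Eno3 at 0.15, Mylpf at 1.5 and Acta1 at 3.65. Of these, Ckm, Myh4, Tnni2, Tnnc2 and Pvalb were called, with differences from 2.75 to 4.89. Without HET IgG replicate 2 no gene of these 2 lists was called by limma (Trp63 0.071, the 5 muscle genes 0.056 to 0.073, adjusted p). Trp63, Tnnc2 and Pvalb had mean log2 levels of -1.75, -0.19 and -1.04, so they too may have passed the filter through libraries in which they were high. The summed muscle level was 37.4 to 416 CPM in HET IgG, 45.8 to 83.1 in HET anti-PD1, 69.3 to 676 in HET anti-CD40 and 112 to 397 in the HET combination. With a keratinocyte score and a muscle score as covariates, the Ccr7 difference was 0.72 (limma, adjusted p = 0.854), the Cd86 difference 0.71 (0.856) and the Batf3 difference 0.15 (0.936), and 0 genes were called.

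Of the remaining cell types, no marker passed the test in HET tumors. Neutrophil genes were higher in 4 of 5 (S100a9 at 2.86, S100a8 at 2.73 and Csf3r at 1.39), and both Langerhans cell genes were higher (Epcam at 1.77 and the scarce Cd207 at 0.95). Endothelial genes, which matter for Zbtb46, had a median of 0.09 over 6, with Eng at 0.02, Vwf at -0.15 and Pecam1 at 0.26. Melanocyte genes were lower in 5 of 7 (median -0.31), with Dct at -0.31, Pmel at -0.41 and Tyrp1 at -0.41.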

How the data were processed

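RNA from 30 tumors was sequenced with TruSeq libraries. The deposited log2 values are CPM (counts scaled to library size) from edgeR with a prior of about 2.01 reads, by the authors, after alignment with STAR to mm10, per the submitters' processing notes; versions are not given in the sources used here. The prior was read from the values, and whole reads were recovered from 100% of them (tolerance 0.01). HET and WT groups came from the sample titles.

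The fit was limma 3.58.1 (R 4.3.3, trend on) over 8 group means and 30 libraries, on 15002 of 18975 genes (log2 over 0 in 3 or more libraries), with Benjamini-Hochberg adjustment over all genes tested. Comparisons with and without anti-CD40 weight the single-antibody and combination arms equally. Single genes were also tested by exact permutation within antibody strata (scipy 1.17.1, two-sided). The fit was also run on simulated counts with no L number effect, no outlying library and no shared shift of cell types. That run therefore says nothing about these features of the data. Alternatives were no filter, log2(CPM + 1), voom on the recovered reads, the replicate block, the L number, tissue scores or Ptprc as covariates, and each library left out. Ptprc as a covariate, and the gene lists and Ptprc without HET IgG replicate 2, were chosen after seeing the data.

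Members, gene lists and tests were chosen with earlier results of these data known. Named genes are the 9 members, reference genes (Ptprc, Itgax, Clec9a, Adgre1 and Cd40), and, per list, the 3 with the highest mean level and any called. Ly6d, Cox6a2 and Siglech are named in addition. The lists cover cDC1, cDC2, shared dendritic, plasmacytoid, maturation, ligand, macrophage, B, T, Langerhans, neutrophil, endothelial, keratinocyte, muscle and melanocyte genes. Of the lists' symbols, those not among the table's genes were not analysed here. Adgre1 is listed under an older symbol, and 11 symbols occur more than once. Depth was 17612565 to 35996574 reads.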

Additional observations from a re-analysis of the deposited data

Results flagged for a closer look

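Over 44 sets of 4 or 5 libraries (1 gene in 1 group), 2 had a library farther from the rest than Dixon's 95% limit for 4 values (0.829) allows. Chance alone gives about 1 in 20, but not for Xcr1, since with 3 libraries tied at no read any library with a read stands out by construction. Xcr1 stood at -2.12 in HET IgG replicate 4, with 4 reads, while the other 3 HET IgG libraries had no read (-3.64), a gap equal to the whole range (1.00). Cd80 stood at -1.05 in HET anti-CD40 replicate 2, and the other 3 libraries of that group were at -0.13 or above (gap over range 0.872). Without HET anti-CD40 replicate 2 the anti-CD40 difference of Cd80 in HET was 1.22, against 1.09 with it.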

How the results depend on the processing

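The number of genes called for anti-CD40 in HET (639) was 0 with the L number, with keratinocyte and muscle scores, or with the Ptprc level as covariates, 224 with a replicate block, and 0 to 1876 with each library left out. For HET against WT with anti-CD40 (115) it was 192 on log2(CPM + 1), 38 with voom, 0 with each of the 3 kinds of covariate, 75 with a replicate block, and 0 to 297 with a library left out. Left-out libraries gave at most 1 gene for anti-CD40 and for anti-PD1 in HET and 6 for the combination in HET, from 0. The replicate numbers did not pair the samples (mean correlation of deviations -0.04 over 94 same-numbered pairs, 0.01 over 298 others), and with the replicate block Ccr7 in HET was at 1.70 (limma, adjusted p = 0.056) and Cd86 at 1.75 (0.086).

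For the differences that changed sign, the cause was not tested. With tissue scores, Zbtb46 was at 0.17 in HET, Batf3 at -0.0034 and Cd86 at -0.14 in WT, Batf3 at -0.11 between genotypes with anti-CD40, and Xcr1 at -0.051 without. With Ptprc, Cd80 was at -0.035 in HET, Flt3 at 0.25, Xcr1 at 0.062, Naaa at 0.065 and Ccr7 at 0.18 in WT, the Cd86 genotype difference at -0.15, Flt3 at -0.027, Batf3 at -0.081 and Cd80 at -0.13 between genotypes with anti-CD40, and Zbtb46 at 0.0069 and Cd86 at 0.25 without. With the L number, Flt3 was at 1.87, Xcr1 at 0.83, Naaa at 0.21, Ccr7 at 1.04 and Cd80 at 0.013 in WT, the genotype difference at -0.65 for Flt3, -0.74 for Batf3, -0.073 for Ccr7 and -0.33 for Cd86, and genotypes without anti-CD40 at 1.03 for Flt3, 1.53 for Batf3, 0.19 for Zbtb46, -0.10 for Naaa, 0.41 for Ccr7, 1.24 for Cd80 and 2.39 for Cd86. On log2(CPM + 1), Cd86 in WT was at -0.019 and Xcr1 between genotypes without anti-CD40 at -0.00067. With the replicate block Flt3 in WT was at 0.082. Between genotypes without anti-CD40, voom gave 0.0029 for Zbtb46 and 0.029 for Cd86, and the replicate block 0.018 for Zbtb46, -0.015 for Naaa and 0.12 for Cd86. With libraries left out, ranges were -0.096 to 0.049 for Zbtb46 in HET, -0.31 to 0.23 for Flt3, -0.31 to 0.033 for Xcr1, -0.11 to 0.11 for Naaa, -0.31 to 0.40 for Ccr7 and -0.30 to 0.37 for Cd86 in WT, -0.00033 to 0.19 for Zbtb46 between genotypes with anti-CD40, and -0.12 to 0.26 for Xcr1, -0.074 to 0.071 for Zbtb46, -0.032 to 0.11 for Naaa and -0.31 to 0.14 for Cd86 without. Of 405 member differences over the alternatives, 341 kept direction and side of the threshold, as did 705 of 810 with a library left out. Most of these were not called at first and so could not lose a call. Of those called in HET, Ccr7, Cd86, Flt3 and Xcr1 stayed called in 5, 4, 4 and 6 of 9 alternatives. With a library left out they were called in 6, 4, 5 and 9 of 15 fits. Xcr1 between genotypes with anti-CD40 stayed called in 2 of 9 alternatives and 7 of 14 left-out fits. Depth limits Xcr1 and Flt3 most, where 1 read more or less moves a library by a large step on the log2 scale.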
